A study of Homo sapiens with 16 samples.

Results

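The G2/M and mitosis genes are 50 genes whose products carry a cell from the end of G2 through chromosome segregation to the separation of the daughter cells. They were chosen by symbol, and the array probes that carry a RefSeq accession of each gene were collected. Of the 50 genes, 49 had a matched probe and all 49 were tested, among 16394 tested genes with a symbol. UBE2C was the member with no matched probe and has no value here. The 49 genes were read by 61 probes, and unless another probe is named a gene is described by its probe with the highest mean signal. Of these 49 probes, 45 were well above background on all 16 arrays, CENPA, ANLN and ECT2 on 15, and SPC24 on 14.

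The arrays came from LP-1, a human multiple myeloma (MM) cell line that the study describes as TRAF3 deleted/mutated. LP-1-cIAP2-eGFP cells had been transduced with a lentivirus made from a pIRES2 plasmid coding for cIAP2 and eGFP, and the control (LP-1-eGFP, mock) cells with the eGFP plasmid alone. The transduced cells were sorted, and nothing in the sources used here says that either line is a clone. Each line was left untreated or given bortezomib, a proteasome inhibitor dissolved in DMSO, at 10 nM for 6 or 24 hours. This gave 8 conditions with 2 biological replicates each, so every comparison of single conditions is of 2 arrays against 2. Whether the untreated cells received DMSO is not given in the sources used here.

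BIRC3, the gene of cIAP2, was read by 1 probe, and its signal was lower in the line transduced with cIAP2. In untreated control cells its log2 signal was 13.57 and 13.67 at 6 hours and 13.54 and 13.55 at 24 hours. In untreated LP-1-cIAP2-eGFP cells it was 11.92 and 12.13 at 6 hours and 11.92 and 12.06 at 24 hours. The untreated arrays of the lines did not overlap, and LP-1-cIAP2-eGFP was lower by 1.57 on the log2 scale (standard error 0.106, adjusted p = 2.24e-05). The study states that this probe lies in the untranslated end of the transcript and reads the endogenous gene alone, and that overexpression was verified by RT-qPCR. The probe therefore does not check the label, and its position was not checked here.

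The array of LP-1-cIAP2-eGFP replicate 1 with bortezomib for 24 hours stood apart from the other 15 arrays. Its median log2 signal was 3.18, against 5.73 to 6.64 on the others, and 35.5% of its spots were well above background, against 49% to 71.1%. After quantile normalization the standard deviation of the replicate difference over all probes was 1.48 for its condition and 0.495 to 0.773 for the other 7 conditions. Many of the values that rest on this low-signal array are therefore given with and without it, and where no second value is given the value includes it. Without it 1 array stands for its condition, and an adjusted p from such a fit takes its spread from the other 7 conditions. The arrays lay on 2 slides, of which slide 1 held 6 arrays of LP-1-cIAP2-eGFP and 2 of the control, and slide 2 held 2 and 6.

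All 7 plasma cell markers on the list (SDC1, TNFRSF17, CD38, IRF4, PRDM1, XBP1 and JCHAIN) were well above background on 15 or 16 arrays. The B cell markers MS4A1 and PAX5, the macrophage marker CSF1R and the stromal marker PDGFRB were above background on 0 arrays, CD22 on 1 and the epithelial marker EPCAM on 2.

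Entry into mitosis is driven by CDK1 bound to cyclin A or cyclin B, which CDC25 phosphatases switch on and which PLK1 and the Aurora kinases extend to the centrosomes, the spindle and the kinetochores. The spindle checkpoint holds the anaphase-promoting complex (APC/C) until the chromosomes are attached, after which CDC20 lets the complex mark securin and the cyclins for destruction by the proteasome, the protease that bortezomib blocks. Transcripts of most of these genes rise together in late S phase and G2 under the MuvB complex with B-MYB and FOXM1, and fall in G1 and in resting cells, and they are widely read as markers of proliferation.

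After 24 hours of bortezomib most of these genes were lower in both lines. In control cells 34 of 49 fell and 1 rose, with a median log2 difference of -0.88, beside a background of 11.2% of all 33725 probes called lower and 9.81% called higher and a median of -0.03 over all probes. Taking the brightest probe of each symbol, as was done for the members, the background was 15.1% lower and 13.3% higher. In LP-1-cIAP2-eGFP cells 44 of 49 fell and 1 rose, with a median of -1.28, beside 17.5% of probes called lower, 11.1% called higher and a median of -0.16 over all probes. With the brightest probe of each symbol these shares were 22% and 14.4%. A gene was called where its adjusted p (limma, Benjamini-Hochberg over all probes) was under 0.05. In bulk RNA, fewer dividing cells and less transcript per dividing cell cannot be told apart.

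Without the low-signal array, 38 of 49 members fell in LP-1-cIAP2-eGFP cells and 1 rose, the median was -1.03, and 14.1% of probes were called lower. The calls of TTK, NUF2, SPC24, ANLN, NEK2 and HJURP were lost without it, and 0 were gained. On the low-signal array 44 of 49 members were lower than on the other array of that condition. Against the mean of the untreated arrays of its line, the median member stood at -0.74 and -0.76 on the control arrays with bortezomib for 24 hours, at -1.38 on the low-signal array and at -0.88 on its replicate. Falls of more than 2-fold that passed the test numbered 16 in control cells and 31 in LP-1-cIAP2-eGFP cells, beside 6.67% and 12.2% of probes by the same rule. The second count was 25 without the low-signal array, beside 8.36% of probes.

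**Figure D1:**
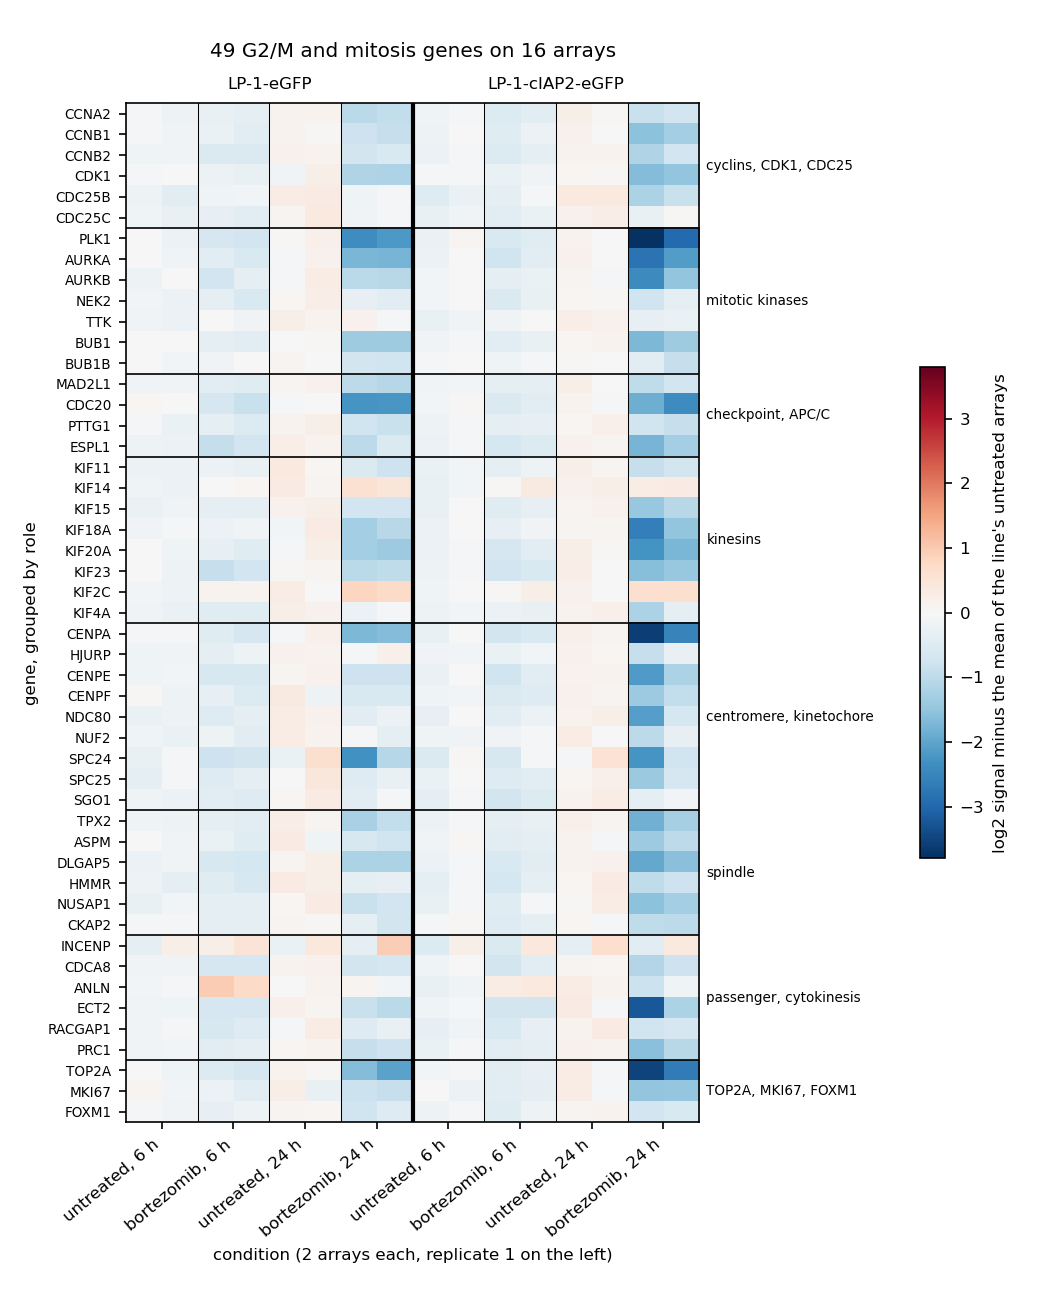
Log2 signal of each of the 49 genes (rows) on each of the 16 arrays (columns), as the difference from the mean of the untreated arrays of the same line. Blue marks lower and red higher values, and the 4 columns of bortezomib for 24 hours are blue for most genes, with KIF2C and KIF14 red in all 4.

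Both arrays treated for 24 hours lay below both untreated arrays for 43 of 49 members in control cells and 46 of 49 in LP-1-cIAP2-eGFP cells, where 29.4% and 32% of all probes did so. The same 34 genes that fell in control cells also fell in LP-1-cIAP2-eGFP cells, beside 9.47% of probes called lower in both lines. A further 10 genes fell in LP-1-cIAP2-eGFP cells and did not pass the test in control cells, 1 gene rose in both, and 4 (CDC25C, KIF14, INCENP and SGO1) passed in neither. The calls lost in LP-1-cIAP2-eGFP cells without the low-signal array were those of TTK, NUF2, ANLN and HJURP among the 10 and of NEK2 and SPC24 among the 34, and in the same fit 39 members fell in control cells. The share of all probes called lower in control cells in that fit is not given here. Across the 49 genes the 24 hour differences of the lines, which share no arrays, had a Pearson r of 0.88 and a Spearman rho of 0.85, against an r of 0.59 over all probes. Genes are not independent replicates, and these correlations are a description.

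Since the members moved together, their promoters were read from RefSeq (GRCh38.p14, 250 bases before to 50 after the transcription start), which held 54 promoters for 44 of the 50 genes. The CDK1 and cyclin B class of promoters is known for the CHR element, which the MuvB complex binds, and for CCAAT boxes upstream of it. The stretches below run from -150 to 20 against the start, and they are shown for 5 genes that fell in both lines and for KIF2C, which rose. Capitals mark CCAAT on either strand and, also on either strand, the letters called CHR-type here: the common form TTTGAA as well as its variants TTCGAA, then TTTAAA, and finally CTTGAA. In TOP2A, ATTGG is CCAAT on the opposite strand and TTCAAG is the last CHR-type form read that way.
PLK1, chr16:23678739-23678908, plus strand: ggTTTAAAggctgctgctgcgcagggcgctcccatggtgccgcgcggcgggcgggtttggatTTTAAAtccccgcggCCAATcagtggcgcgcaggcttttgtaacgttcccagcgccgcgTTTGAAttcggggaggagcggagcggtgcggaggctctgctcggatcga
CDC20, chr1:43358831-43359000, plus strand: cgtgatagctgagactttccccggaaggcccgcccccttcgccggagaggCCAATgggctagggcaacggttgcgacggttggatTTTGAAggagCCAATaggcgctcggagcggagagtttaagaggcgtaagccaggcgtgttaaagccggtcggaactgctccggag
TOP2A, chr17:40417877-40418046, minus strand: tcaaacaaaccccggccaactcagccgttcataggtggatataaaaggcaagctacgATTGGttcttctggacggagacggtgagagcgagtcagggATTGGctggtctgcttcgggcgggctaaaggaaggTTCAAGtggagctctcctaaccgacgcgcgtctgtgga
CCNB1, chr5:69167000-69167169, plus strand: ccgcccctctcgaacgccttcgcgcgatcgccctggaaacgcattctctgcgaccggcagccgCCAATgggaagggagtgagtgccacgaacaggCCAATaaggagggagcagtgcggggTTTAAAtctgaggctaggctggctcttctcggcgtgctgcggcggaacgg
CCNB2, chr15:59104996-59105165, plus strand: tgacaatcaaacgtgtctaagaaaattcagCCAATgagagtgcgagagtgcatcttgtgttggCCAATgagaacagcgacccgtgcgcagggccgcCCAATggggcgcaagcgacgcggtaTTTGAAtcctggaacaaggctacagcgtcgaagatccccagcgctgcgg
KIF2C, chr1:44739687-44739856, plus strand: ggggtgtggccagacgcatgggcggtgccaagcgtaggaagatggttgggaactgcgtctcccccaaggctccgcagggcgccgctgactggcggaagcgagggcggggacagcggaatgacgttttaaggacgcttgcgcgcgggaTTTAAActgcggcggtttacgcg

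The first 5 stretches each hold a CCAAT and a CHR-type match, which in PLK1, CCNB1 and CCNB2 begin at -73, -55 and -54 for the nearest CCAAT and at -29, -30 and -29 for the CHR-type match. In CDC20 the TTTGAA match at -65 lies between CCAAT matches at -100 and -55. The KIF2C stretch holds no CCAAT and a single TTTAAA that runs across the start site. Over the whole window CCAAT was also absent from the promoters of BUB1B, KIF15, CENPE and CKAP2, which fell in both lines, and present in those of KIF14, CDC25C, INCENP and SGO1, which passed in neither. Over the whole window, a CHR-type match was present in 45 of 54 member promoters (83.3%), in 32.2% of all 35116 promoters and in 25.5% of the 18027 promoters of tested genes. From 100 bases before to 50 after the start these shares were 77.8%, 15.7% and 11.3%. CCAAT was present in 41 of 54 (75.9%), in 34.6% of all promoters and in 34.8% of those of tested genes.

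The E2F-type letters TTTCCCGC, TTTCGCGC, TTTGCCGC and TTTGGCGC, read on both strands, were in 5 of the 54 member promoters (9.26%), in 3.31% of all and in 4.53% of those of tested genes. From 100 bases before to 50 after the start they were in 3.7% of member promoters and 2.3% of those of tested genes. Among the CHR-type letters TTCGAA and TTTAAA read the same on both strands and were counted once, matches of different letters may share bases, and genes with several start sites have overlapping windows, so some matches were counted more than once. The 73 CHR-type matches had a median first base at -30 and the 86 CCAAT matches at -78.5. A match describes letters in a window, and binding was not measured here.

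**Figure D2:**
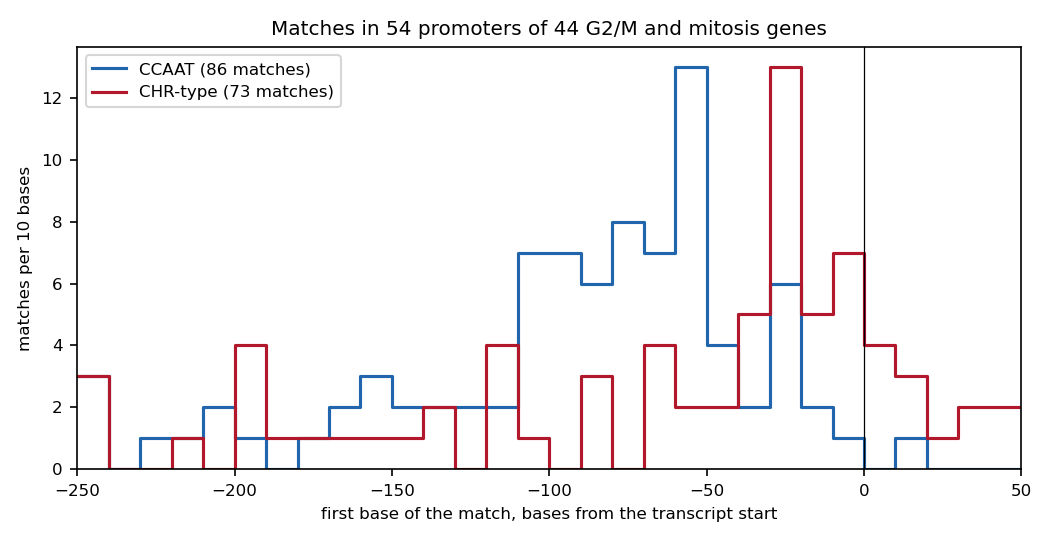
Number of matches in the 54 member promoters (vertical axis) by position of the first base of the match against the transcription start in bases (horizontal axis, bins of 10), for CCAAT and for the CHR-type letters. Of the 73 CHR-type matches 30 begin between -40 and -1, and of the 86 CCAAT matches 52 begin between -110 and -41.

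Among the 6 genes of the cyclin A and B, CDK1 and CDC25 group, 4 fell in control cells (median -0.86) and 5 in LP-1-cIAP2-eGFP cells (median -1.22). CDK1, the kinase at the centre of mitotic entry, had log2 signals of 12.78 and 13.14 on the untreated control arrays at 24 hours and 11.77 on each treated array. In LP-1-cIAP2-eGFP cells it read 13.27 and 13.24 untreated and 11.55 and 11.69 treated. The treated arrays lay below the untreated ones in both lines, and CDK1 fell 2.29-fold in control cells (log2 difference -1.19, standard error 0.143, adjusted p = 0.000347) and 3.10-fold in LP-1-cIAP2-eGFP cells (-1.63, adjusted p = 4.85e-05), or by 1.56 on the log2 scale without the low-signal array.

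CCNB1 codes for cyclin B1, the partner of CDK1 at mitotic entry. Its log2 signal at 24 hours went from 14.77 and 14.67 to 13.83 and 13.75 in control cells. LP-1-cIAP2-eGFP arrays went from 15.06 and 14.94 to 13.36 and 13.63. Neither pair of treated arrays overlapped its untreated pair, and CCNB1 fell 1.90-fold in control cells (-0.93, standard error 0.157, adjusted p = 0.00234) and 2.84-fold in LP-1-cIAP2-eGFP cells (-1.50, adjusted p = 0.000122), or by 1.37 without the low-signal array. A second CCNB1 probe fell by 1.76 and 1.90 on the log2 scale.

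CCNA2 and CCNB2, which code for cyclin A2 and cyclin B2, fell by 1.11 and 0.80 on the log2 scale in control cells and by 0.92 and 1.06 in LP-1-cIAP2-eGFP cells. The phosphatase CDC25B had a difference of -0.39 in control cells (adjusted p = 0.151) and fell by 1.39 in LP-1-cIAP2-eGFP cells (adjusted p = 0.000312). CDC25C, which also activates CDK1, did not pass the test in either line, with differences of -0.33 and -0.32.

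All 7 mitotic kinases on the list fell in LP-1-cIAP2-eGFP cells (median -1.65) and 6 of them in control cells (median -1.15). Of the 7, 5 fell in LP-1-cIAP2-eGFP cells without the low-signal array, and with 75th percentile scaling 6 fell there and 5 in control cells. PLK1, which acts from centrosome maturation to cytokinesis, had the largest fall of the 49 genes in both lines. Its log2 signals at 24 hours were 12.52 and 12.68 untreated and 10.10 and 10.29 treated in control cells. In LP-1-cIAP2-eGFP cells they were 12.78 and 12.64 untreated and 8.88 and 9.67 treated. Treated and untreated arrays did not overlap, the lower of the treated pair in LP-1-cIAP2-eGFP cells being the low-signal array. PLK1 fell 5.30-fold in control cells (-2.41, standard error 0.241, adjusted p = 0.000132) and 10.8-fold in LP-1-cIAP2-eGFP cells (-3.44, adjusted p = 1.46e-05). Without the low-signal array the second difference was -3.04 (adjusted p = 2.26e-05), and a second PLK1 probe fell by 1.70 and 2.14.

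AURKA, the Aurora kinase of the spindle poles, read 13.43 and 13.65 untreated and 11.74 and 11.73 treated at 24 hours in control cells. In the LP-1-cIAP2-eGFP line the gene read 13.72 and 13.57 untreated and 10.73 and 11.41 treated. The arrays again did not overlap, and AURKA fell 3.49-fold (-1.80, standard error 0.225, adjusted p = 0.000428) and 5.96-fold (-2.57, adjusted p = 4.81e-05), or by 2.24 without the low-signal array. AURKB, the kinase of the chromosomal passenger complex, fell by 1.15 and 1.98, the second being 1.52 without the low-signal array. NEK2, a centrosome kinase, fell by 0.55 and 0.63, though a second NEK2 probe did not pass in control cells (-0.63, adjusted p = 0.209). The spindle checkpoint kinase TTK had a difference of -0.12 in control cells and -0.48 in LP-1-cIAP2-eGFP cells (adjusted p = 0.0257), a call that was lost without the low-signal array.

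Of the checkpoint and APC/C genes, with BUB1, BUB1B and TTK counted here again, 6 of 7 fell in control cells and 7 of 7 in LP-1-cIAP2-eGFP cells (6 without the low-signal array), with medians of -0.97 and -0.96. CDC20, the APC/C activator that the checkpoint restrains, read 12.17 and 12.20 untreated and 9.99 and 10.00 treated at 24 hours in control cells. In LP-1-cIAP2-eGFP cells it read 12.54 and 12.35 untreated and 10.57 and 10.02 treated. The treated arrays lay below the untreated ones in both lines, with the low-signal array as the higher of its pair. CDC20 fell 4.56-fold (-2.19, standard error 0.183, adjusted p = 5.15e-05) and 4.43-fold (-2.15, adjusted p = 4.29e-05), or by 2.42 without the low-signal array.

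BUB1, a checkpoint kinase at the kinetochore, fell by 1.36 and 1.65 on the log2 scale, and BUB1B, the checkpoint inhibitor of the APC/C, by 0.78 and 0.68. MAD2L1, which codes for the checkpoint protein MAD2, fell by 1.17 in control cells and 0.96 in LP-1-cIAP2-eGFP cells. PTTG1, which codes for securin, fell by 0.97 and 0.94, and ESPL1, the separase that securin holds inactive, by 0.97 and 1.68.

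The 8 kinesins, motors of the spindle and midzone, included the member that rose. KIF2C, a microtubule-depolymerizing kinesin of the centromere, read 14.40 and 14.13 untreated and 14.92 and 14.83 treated at 24 hours in control cells. LP-1-cIAP2-eGFP arrays read 14.52 and 14.36 untreated and 14.98 and 14.95 treated. The treated arrays were above the untreated ones in both lines, and KIF2C rose 1.53-fold (0.61, standard error 0.144, adjusted p = 0.0132) and 1.44-fold (0.53, adjusted p = 0.0217), or by 0.51 without the low-signal array (adjusted p = 0.0426). With each array scaled to its 75th percentile in place of quantile normalization the differences were 0.37 (adjusted p = 0.201) and 0.21 (adjusted p = 0.441), so that neither passed the test. The control call was also lost without treated replicate 1 (adjusted p = 0.0839) or untreated replicate 2 (adjusted p = 0.0918), and the other without untreated replicate 1 (adjusted p = 0.0504) or 2 (adjusted p = 0.134).

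KIF20A, a kinesin of the central spindle, fell 2.68-fold in control cells, from 10.88 and 11.12 to 9.61 and 9.54. In the LP-1-cIAP2-eGFP line the gene went from 11.29 and 11.13 to 8.81 and 9.33, a fall of 2.14 on the log2 scale, or 1.88 without the low-signal array. KIF18A, which sets chromosome alignment at metaphase, went from 9.90 and 10.30 to 8.69 and 8.92 in control cells and from 10.49 and 10.48 to 7.78 and 8.88 in LP-1-cIAP2-eGFP cells. Neither gene's treated arrays overlapped the untreated ones in either line. KIF18A fell by 1.29 (adjusted p = 0.013) and by 2.16 (adjusted p = 0.000644), or by 1.60 without the low-signal array. KIF23, KIF11 and KIF15, motors of the midzone and of spindle bipolarity, fell by 1.07, 0.88 and 0.92 in control cells and by 1.66, 0.96 and 1.38 in LP-1-cIAP2-eGFP cells. KIF4A, a chromosome-bound kinesin, passed in LP-1-cIAP2-eGFP cells (-0.94, or -0.54 without the low-signal array) and not in control cells (-0.34), and KIF14, which acts in cytokinesis, had differences of 0.31 and 0.10 that did not pass.

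Of the 9 centromere and kinetochore genes, 4 fell in control cells (median -0.58) and 8 in LP-1-cIAP2-eGFP cells (median -1.28), or 5 without the low-signal array (median -0.83). The median in control cells was -0.58 in that fit too. With 1 treated array left for LP-1-cIAP2-eGFP cells, the counts of the lines cannot be compared in it. CENPA, the histone H3 variant that marks the centromere, read 11.58 and 11.84 untreated and 9.93 and 9.98 treated at 24 hours in control cells. In LP-1-cIAP2-eGFP cells it read 11.40 and 11.31 untreated and 7.61 and 8.67 treated. The arrays did not overlap, and CENPA fell 3.37-fold (-1.75, standard error 0.282, adjusted p = 0.00177) and 9.26-fold (-3.21, adjusted p = 4.86e-05), or by 2.69 without the low-signal array, on which CENPA was not well above background. HJURP, the chaperone that loads CENPA, had a difference of -0.07 in control cells (adjusted p = 0.864) and of -0.70 in LP-1-cIAP2-eGFP cells (adjusted p = 0.0203), a call that was lost without the low-signal array.

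SPC24, a subunit of the NDC80 complex that binds microtubules, read 7.12 and 7.97 untreated and 5.07 and 6.30 treated in control cells. LP-1-cIAP2-eGFP arrays read 8.26 and 8.86 untreated and 6.08 and 7.55 treated. The treated arrays were below the untreated ones, with a wide spread between replicates, and SPC24 fell by 1.86 (standard error 0.546, adjusted p = 0.0372) and by 1.75 (adjusted p = 0.0387). In each line SPC24 was well above background on 1 of the 2 treated arrays. Without the low-signal array the second difference was -1.01 (adjusted p = 0.232). The other NDC80 subunits NDC80, NUF2 and SPC25 did not pass in control cells (-0.53, -0.41 and -0.58) and fell by 1.54, 0.81 and 1.15 in LP-1-cIAP2-eGFP cells, NUF2 only with the low-signal array included. Without that array NDC80 fell by 0.83 and SPC25 by 0.76. The kinetochore proteins CENPE and CENPF fell by 0.92 and 0.65 in control cells and by 1.81 and 1.28 in LP-1-cIAP2-eGFP cells (1.34 and 1.07 without the low-signal array). A second CENPF probe did not pass in control cells (-0.73, adjusted p = 0.057). SGO1, the protector of centromeric cohesion, passed in neither line (-0.42 and -0.44).

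All 6 spindle proteins fell in both lines, with medians of -0.87 and -1.40, the second being -1.23 without the low-signal array. With 75th percentile scaling 5 of the 6 fell in control cells and 6 in LP-1-cIAP2-eGFP cells. TPX2, the activator of Aurora A, fell by 1.27 and 1.70, and DLGAP5, which stabilizes kinetochore fibres, by 1.38 and 1.92. ASPM and NUSAP1, proteins of spindle poles and spindle microtubules, fell by 0.75 and 0.98 in control cells and by 1.23 and 1.57 in LP-1-cIAP2-eGFP cells. HMMR and CKAP2, microtubule-binding proteins of the spindle, fell by 0.60 each in control cells and by 1.07 and 1.01 in LP-1-cIAP2-eGFP cells. A second CKAP2 probe did not pass in either line (-0.04, adjusted p = 0.95, and -0.31, adjusted p = 0.365).

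Of the 8 genes of the passenger complex and of cytokinesis, with AURKB and KIF23 counted here again, 4 fell in control cells and 7 in LP-1-cIAP2-eGFP cells. Without the low-signal array 6 fell in each line. PRC1, the microtubule bundler of the midzone, fell by 0.94 and 1.46, and CDCA8, the borealin subunit of the passenger complex, by 0.80 and 1.03. ECT2, the exchange factor that activates RhoA at the midzone, read 9.53 and 9.43 untreated and 8.49 and 8.33 treated in control cells. In the LP-1-cIAP2-eGFP line the gene read 9.63 and 9.26 untreated, 6.13 on the low-signal array and 8.13 on its replicate. The treated arrays were below the untreated ones in both lines, but the control difference of -1.07 (standard error 0.481) did not pass (adjusted p = 0.162), and ECT2 fell by 2.32 in LP-1-cIAP2-eGFP cells (adjusted p = 0.00567), or by 1.31 without the low-signal array (adjusted p = 0.000557), on which it was not well above background. RACGAP1, the partner of KIF23 in centralspindlin, had differences of -0.49, which did not pass, and -0.93. ANLN, the scaffold of the contractile ring, had differences of -0.08 and -0.69 and lost its call in LP-1-cIAP2-eGFP cells without the low-signal array, and INCENP, the scaffold of the passenger complex, passed in neither line (0.22 and -0.18).

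TOP2A, the topoisomerase that untangles sister chromatids, read 12.76 and 12.65 untreated and 10.95 and 10.57 treated at 24 hours in control cells. In LP-1-cIAP2-eGFP cells it read 12.93 and 12.58 untreated and 9.14 and 10.00 treated. The arrays did not overlap, and TOP2A fell 3.84-fold (-1.94, standard error 0.261, adjusted p = 0.000647) and 9.12-fold (-3.19, adjusted p = 3.37e-05), or by 2.76 without the low-signal array.

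MKI67, the gene of the proliferation antigen Ki-67, went from 12.15 and 11.61 to 11.06 and 11.01 in control cells. LP-1-cIAP2-eGFP arrays went from 12.38 and 12.03 to 10.59 and 10.64. The arrays did not overlap, and MKI67 fell 1.79-fold (-0.84, standard error 0.202, adjusted p = 0.0144) and 3.01-fold (-1.59, adjusted p = 0.00036). Its other probes gave differences of -2.23 and -0.95 in control cells and of -3.75 and -1.62 in LP-1-cIAP2-eGFP cells, so the size of the fall depended on the probe.

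FOXM1, the transcription factor of the late cell cycle, went from 11.66 and 11.63 to 10.79 and 11.07 in control cells and from 11.64 and 11.67 to 10.81 and 10.97 in LP-1-cIAP2-eGFP cells. Treated and untreated arrays were apart in both lines. FOXM1 fell 1.64-fold (-0.72, standard error 0.151, adjusted p = 0.00762) and 1.70-fold (-0.76, adjusted p = 0.00444), or by 0.68 without the low-signal array (adjusted p = 0.0145).

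**Figure D3:**
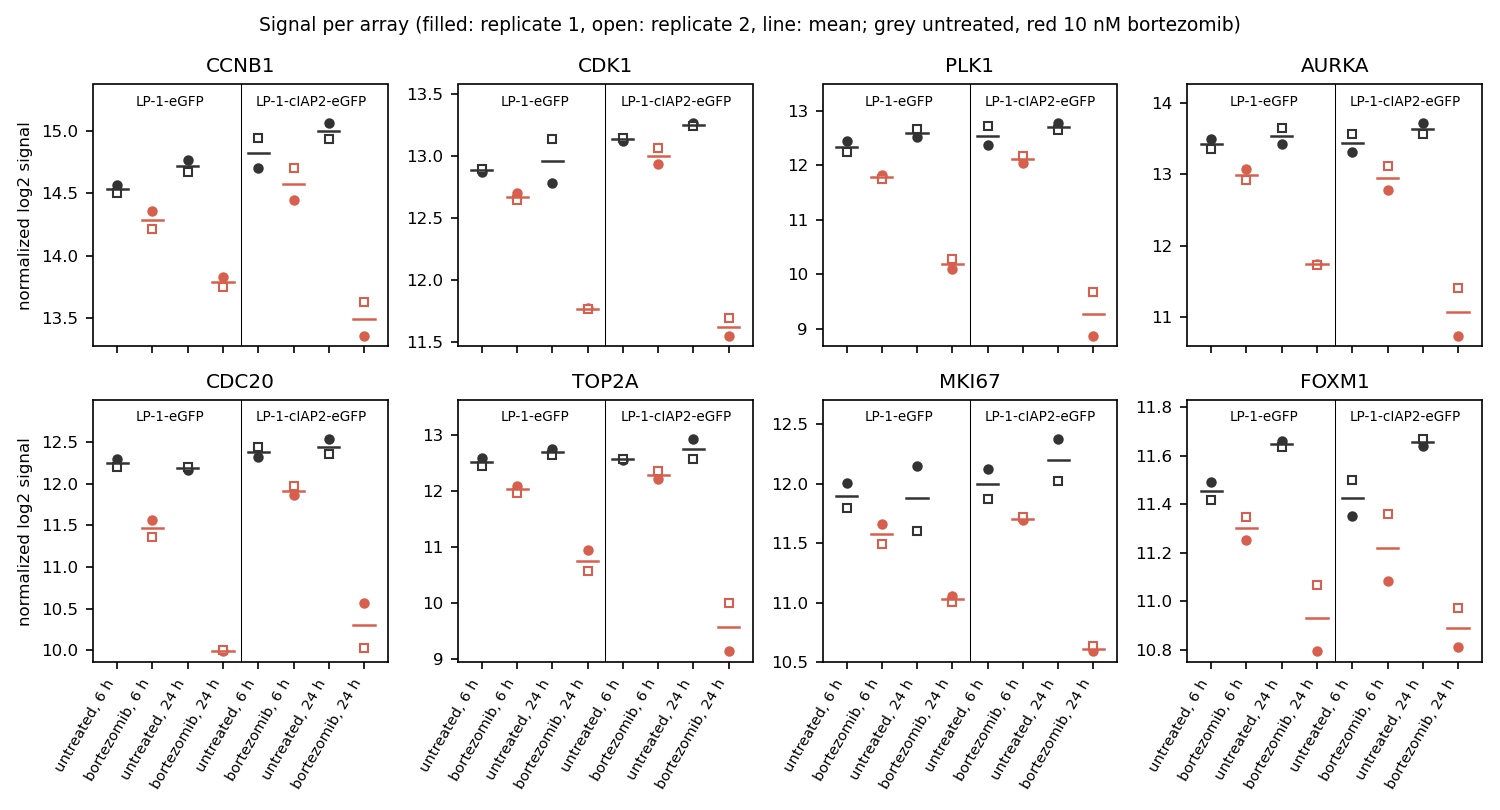
Normalized log2 signal (vertical axis) of CCNB1, CDK1, PLK1, AURKA, CDC20, TOP2A, MKI67 and FOXM1 on each array, by line, treatment and time, with a bar at the mean of 2 replicates. In every panel the arrays with bortezomib for 24 hours lie below the untreated arrays of the same line, from 0.72 lower on the log2 scale for FOXM1 in control cells to 3.44 lower for PLK1 in LP-1-cIAP2-eGFP cells.

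Slides held both treated and untreated arrays of a line, which allowed the 24 hour difference to be read within a slide. On slide 2 the member median in control cells was -0.87 (1 treated against 2 untreated arrays), and on slide 1 it was -1.32 in LP-1-cIAP2-eGFP cells (2, the low-signal array among them, against 1). With slide as a block in the model 28 members fell in control cells and 40 in LP-1-cIAP2-eGFP cells, beside 8.98% and 13.8% of probes.

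At 6 hours most of the genes were slightly lower, and the number that passed the test depended on the setting. In control cells 1 member fell and 0 rose, beside 0.691% of probes called lower and 1.26% called higher, and the median was -0.28. In LP-1-cIAP2-eGFP cells 0 members passed by limma, beside 0.323% of probes called lower and 0.762% called higher, with a median of -0.25. The medians over all probes were -0.03 and 0.00, and 42 of 49 members were below 0 in both lines. Both treated arrays lay below both untreated arrays for 39 members in control cells and 32 in LP-1-cIAP2-eGFP cells, where 32% and 24.1% of probes did so. Within slides the medians were -0.31 in control cells and -0.14 in LP-1-cIAP2-eGFP cells.

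The member called at 6 hours was KIF23, which read 13.44 and 13.23 untreated and 12.53 and 12.70 treated in control cells (-0.72, adjusted p = 0.0454). In the LP-1-cIAP2-eGFP line the gene read 13.63 and 13.76 untreated and 13.11 and 13.26 treated (-0.51, adjusted p = 0.184). The treated arrays were lower in both lines. A second KIF23 probe did not pass in control cells (-0.53, adjusted p = 0.101). Leaving out 1 array at a time gave 0 to 4 members called lower in control cells, and the KIF23 call was lost under 75th percentile scaling (adjusted p = 0.253). With arrays weighted by their quality 18 members fell in control cells. The share of all probes called in that weighted fit is not given here, so the count stands without a background. CDC20 went from 12.30 and 12.20 to 11.57 and 11.36 in control cells (-0.79, adjusted p = 0.0682), and ANLN went the other way, from 9.36 and 9.42 to 10.44 and 10.18 (0.92, adjusted p = 0.0599), neither of which passed the test.

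Between 6 and 24 hours with bortezomib, 14 members fell and 1 rose in control cells, beside 7.33% and 5.51% of probes, and 28 fell and 1 rose in LP-1-cIAP2-eGFP cells, beside 13.2% and 8.37%. Without the low-signal array the second pair was 24 and 0, beside 10.8% and 10.2%. In untreated cells the time points were close. Over both lines 48 of 49 members were higher at 24 than at 6 hours, where 49.6% of probes were, with a median of 0.26, but 0 passed the test by limma, beside 0.00593% of probes called higher and 0.00297% called lower, and the smallest adjusted p was 0.298. Of the 49, 19 had an unadjusted p under 0.05, as had 4.84% of all probes. The largest differences were 0.67 for CDC25B, 0.46 for HMMR and 0.44 for CDC25C.

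The lines were compared over all conditions and in untreated cells. Averaged over treatment and time, 7 members were higher in LP-1-cIAP2-eGFP and 2 were lower, beside 6.25% and 9.84% of probes, the first count being a larger share than its background and the second a smaller one. The median difference was 0.10. Leaving out 1 array at a time gave 1 to 14 members higher and 2 to 9 lower, with 14 higher and 2 lower without the low-signal array. CENPA averaged 10.28 in LP-1-cIAP2-eGFP and 11.07 in control cells (-0.80, adjusted p = 0.00373), and BUB1 was also lower (-0.34, adjusted p = 0.00886). SPC24 averaged 7.85 and 6.77 (1.09, adjusted p = 0.023), and MAD2L1, KIF23, CKAP2, KIF15, DLGAP5 and PTTG1 were higher by 0.24 to 0.33. The lowest, median and highest of the 8 arrays were 7.61, 10.77 and 11.40 in LP-1-cIAP2-eGFP and 9.93, 11.36 and 11.84 in the control for CENPA, and 12.72, 14.23 and 14.57 against 13.38, 14.56 and 14.79 for BUB1. For SPC24 they were 6.08, 8.02 and 8.86 against 5.07, 6.89 and 7.97, for MAD2L1 11.99, 12.73 and 13.19 against 11.61, 12.44 and 12.87, and for KIF23 12.22, 13.45 and 14.09 against 12.38, 12.97 and 13.51. The ranges of the lines overlapped for each of these genes, and each range holds treated and untreated arrays. With slide as a block only CENPA (-0.77, adjusted p = 0.0329) and SPC24 (1.36, adjusted p = 0.0292) remained called.

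CENPA in untreated cells read 11.56 and 11.56 at 6 hours in the control line and 10.92 and 11.19 in LP-1-cIAP2-eGFP. SPC24 in untreated cells at 6 hours read 7.10 and 7.31 in the control line and 7.77 and 8.34 in LP-1-cIAP2-eGFP. The pairs did not overlap for either gene. In untreated cells of both times together, 2 members passed the test with LP-1-cIAP2-eGFP the higher line, beside 2.85% of probes, and 0 with it the lower, beside 4.9%. These were KIF23, whose second probe did not pass (0.36, adjusted p = 0.0583), and CKAP2, whose second probe did not either (0.26, adjusted p = 0.517), each by 0.42. With slide as a block their adjusted p rose to 0.0776 and 0.0758, and leaving out 1 array at a time gave 0 to 7 members higher and 0 to 2 lower, with 7 and 2 without the low-signal array.

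For 42 of 49 members the 24 hour response of LP-1-cIAP2-eGFP was more negative than that of the control, with a median difference between the responses of -0.47, against -0.14 over all probes. By the test of this difference itself 0 members passed, beside 0.0237% of probes called more negative and 0.0474% called more positive, and 13 members had an unadjusted p under 0.05, as had 8.1% of all probes. The largest differences between the responses were -1.46 for CENPA (adjusted p = 0.40), -1.25 for TOP2A, -1.24 for ECT2 and -1.03 for PLK1. Without the low-signal array these were -0.93, -0.82, -0.24 and -0.63, 41 of 49 were more negative, the median was -0.29 against -0.01 over all probes, and 0 passed. Without the other array of that condition, which keeps the low-signal array alone, 24 members passed as more negative, beside 18.9% of all probes.

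Directly compared after 24 hours of bortezomib, CENPA (-1.81, adjusted p = 0.0064) and TOP2A (-1.19, adjusted p = 0.0281) read lower in the LP-1-cIAP2-eGFP line, beside 3.87% of probes, and 0 members were higher, beside 2.05%. Without the low-signal array, which leaves 1 array for that line, the differences were -1.29 for CENPA, -0.76 for TOP2A and 0.58 for MAD2L1. Both arrays of LP-1-cIAP2-eGFP lay below both control arrays for 25 of 49 members, where 23.3% of all probes did so, and the pair of arrays includes the low-signal array. Within slide 1 the median line difference after 24 hours of bortezomib was -0.27 (2 arrays, the low-signal array among them, against 1). Over both slides without the low-signal array it was -0.08, with 29 of 49 members below 0.

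**Figure D4:**
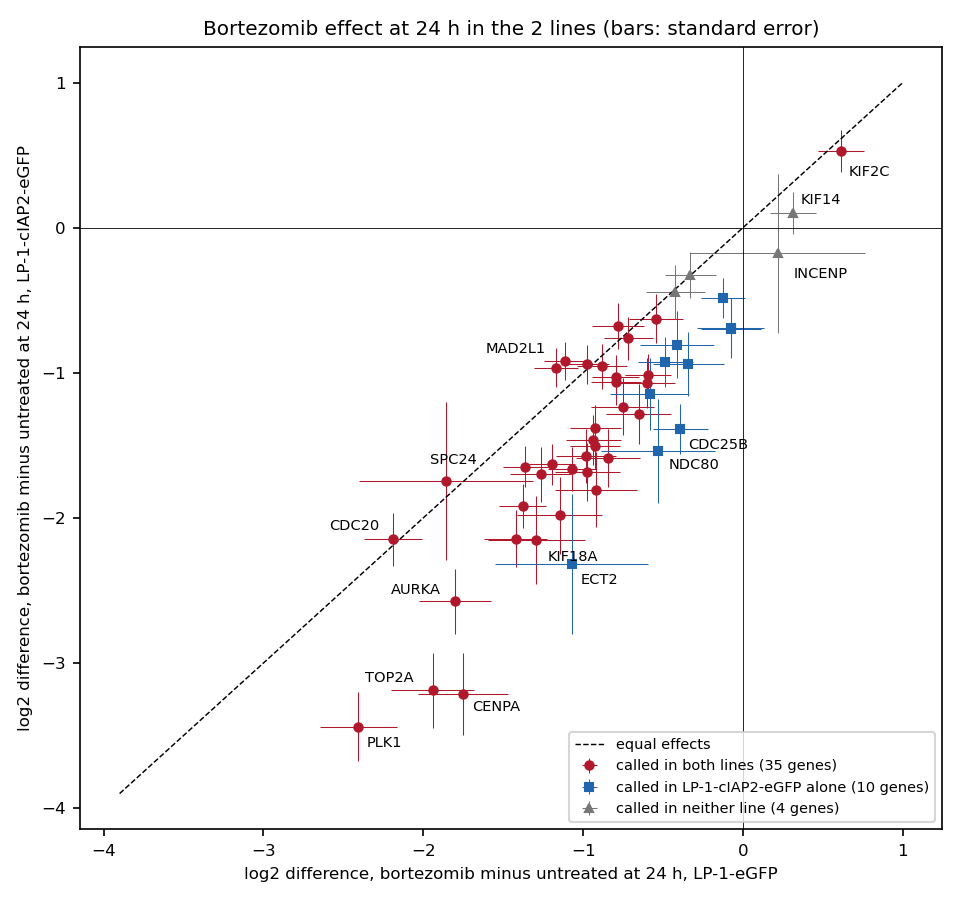
Log2 difference of bortezomib against untreated at 24 hours in control cells (horizontal axis) and in LP-1-cIAP2-eGFP cells (vertical axis) for the 49 genes, with the line of equal differences. The points lie below that line for 42 of 49 genes, and KIF2C is the gene called higher in both, with quantile normalization but not with 75th percentile scaling.

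Other cell cycle lists were read in the same model. Of 46 further mitotic genes tested, 17 fell and 1 rose in control cells (median -0.43) and 26 fell and 2 rose in LP-1-cIAP2-eGFP cells (median -0.84), or 23 and 1 without the low-signal array (median -0.57). In the fit without that array 22 fell and 2 rose in control cells. PSRC1, a spindle protein, fell by 2.65 and 3.50, FAM83D, which recruits a kinase to the spindle, by 1.90 and 2.06, and BIRC5, the survivin subunit of the passenger complex, by 1.75 and 2.12. DIAPH3, a formin of the contractile ring, rose by 1.01 and 1.21, the second of which did not pass without the low-signal array (0.93, adjusted p = 0.0827).

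Among 17 APC/C subunits and partners, 6 fell and 1 rose in control cells (median -0.28) and 9 fell and 2 rose in LP-1-cIAP2-eGFP cells (median -0.36), where 7 fell and 2 rose without the low-signal array (median -0.28) and 8 fell and 0 rose with 75th percentile scaling (median -0.65). Without the low-signal array the median in control cells was also -0.28. With 1 treated array left for LP-1-cIAP2-eGFP cells, the counts of the lines cannot be compared in that fit. With 75th percentile scaling 6 fell and 0 rose in control cells (median -0.56). The largest falls in control cells, with the value in LP-1-cIAP2-eGFP cells after it, were those of UBE2S, an APC/C ubiquitin-conjugating enzyme (-1.69 and -1.85), of FBXO5, an APC/C inhibitor (-1.67 and -1.84), and of ANAPC16 (-0.98 and -0.95). The subunit CDC23 rose by 0.51 and 0.43, and with 75th percentile scaling neither passed (0.29 and 0.17). Of 8 condensin genes 3 fell in control cells, NCAPD2 by 1.42, NCAPG by 1.36 and NCAPD3 by 0.62, and 4 in LP-1-cIAP2-eGFP cells, or 6 without the low-signal array. In control cells 5 condensin genes fell and 1 rose without that array.

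Genes of G1/S and DNA replication also fell, 20 of 34 in control cells (median -0.63) and 19 in LP-1-cIAP2-eGFP cells (median -0.55), with 3 higher in each, or 5 higher in the latter without the low-signal array. In control cells 25 fell and 4 rose without that array. TYMS, the enzyme of thymidylate synthesis, fell by 1.44 in control cells and by 1.62 in LP-1-cIAP2-eGFP cells, and POLE2, a subunit of DNA polymerase epsilon, by 1.46 and 1.83. RRM1, ORC1 and ORC6 rose in control cells by 0.85, 0.80 and 0.76, but with 75th percentile scaling none of the 3 passed (0.61, 0.67 and 0.55).

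Of 15 genes of the MuvB and DREAM complexes and the E2F family, 9 fell and 2 rose in each line, with medians of -0.99 and -1.18. Without the low-signal array 9 fell and 3 rose in each line, with a median of -0.77 in LP-1-cIAP2-eGFP cells. E2F5 (-2.84 and -2.78), E2F8 (-2.28 and -3.06), E2F1 (-1.85 and -1.32), TFDP1 (-1.58 and -2.10) and MYBL2, the gene of B-MYB (-1.36 and -1.39), fell in both lines. RBBP4 (-1.01 and -0.99), RBL2 (-0.99 and -1.50) and E2F4 (-0.61 and -0.89) did so as well. MYBL1 fell in control cells (-1.0) and E2F7 in LP-1-cIAP2-eGFP cells (-1.37, or -0.77 without the low-signal array). The MuvB subunits LIN54 (1.44 and 1.37) and LIN37 (1.25 and 1.25) rose in both lines, and LIN9, LIN52 and RBL1 did not pass in either. LIN52 passed in LP-1-cIAP2-eGFP cells without the low-signal array (1.13, adjusted p = 0.00812, against 0.06 with it).

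Inhibitors of the cycle were mixed. Of 12 CDK inhibitors and p53-linked genes, 2 rose and 4 fell in control cells, and 3 rose and 4 fell in LP-1-cIAP2-eGFP cells, or 3 and 2 without the low-signal array. GADD45A, a stress-induced inhibitor of CDK1 and cyclin B1, rose by 3.20 and 4.16, and SESN2, a stress-response gene, by 2.13 and 3.10. CDKN1A, the gene of p21, had differences of 0.62 (adjusted p = 0.585) and 0.61 (adjusted p = 0.388) that did not pass. It was well above background on 8 of 16 arrays, and 1 treated control array gave no value. CDKN1A passed in LP-1-cIAP2-eGFP cells without the low-signal array (1.53, adjusted p = 0.00382). The antiproliferative gene BTG2 fell by 2.33 and 2.05, CDKN2C by 0.64 and 0.73 and CDKN2A by 0.64 and 0.43, and CDKN1B fell in control cells by 0.50 and did not pass in LP-1-cIAP2-eGFP cells (-0.07), the difference between these responses having an adjusted p of 0.614. In LP-1-cIAP2-eGFP cells MDM2 rose by 0.77 and CDKN2D fell by 0.70, neither of which passed without the low-signal array, and without it the CDKN2A call in that line was lost too. CDKN1C, GADD45B and SESN1 passed in neither line.

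The 8 genes of the response to proteasome inhibition on the list, HSPA1A, HSPA1B, DNAJB1, HSPH1, BAG3, HMOX1, PSMD12 and PSMC4, rose in both lines at both times. With 75th percentile scaling 7 passed in control cells and 6 in LP-1-cIAP2-eGFP cells at 6 hours, and 8 in each at 24 hours. Their median was 3.12 at 6 hours and 2.06 at 24 hours in control cells, and 2.71 and 2.80 in LP-1-cIAP2-eGFP cells, the last being 3.43 without the low-signal array and 3.29 with 75th percentile scaling. BAG3, a chaperone partner, rose by 5.48 and 4.67 in control cells at 6 and 24 hours and by 4.46 and 4.60 in LP-1-cIAP2-eGFP cells.

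**Figure D5:**
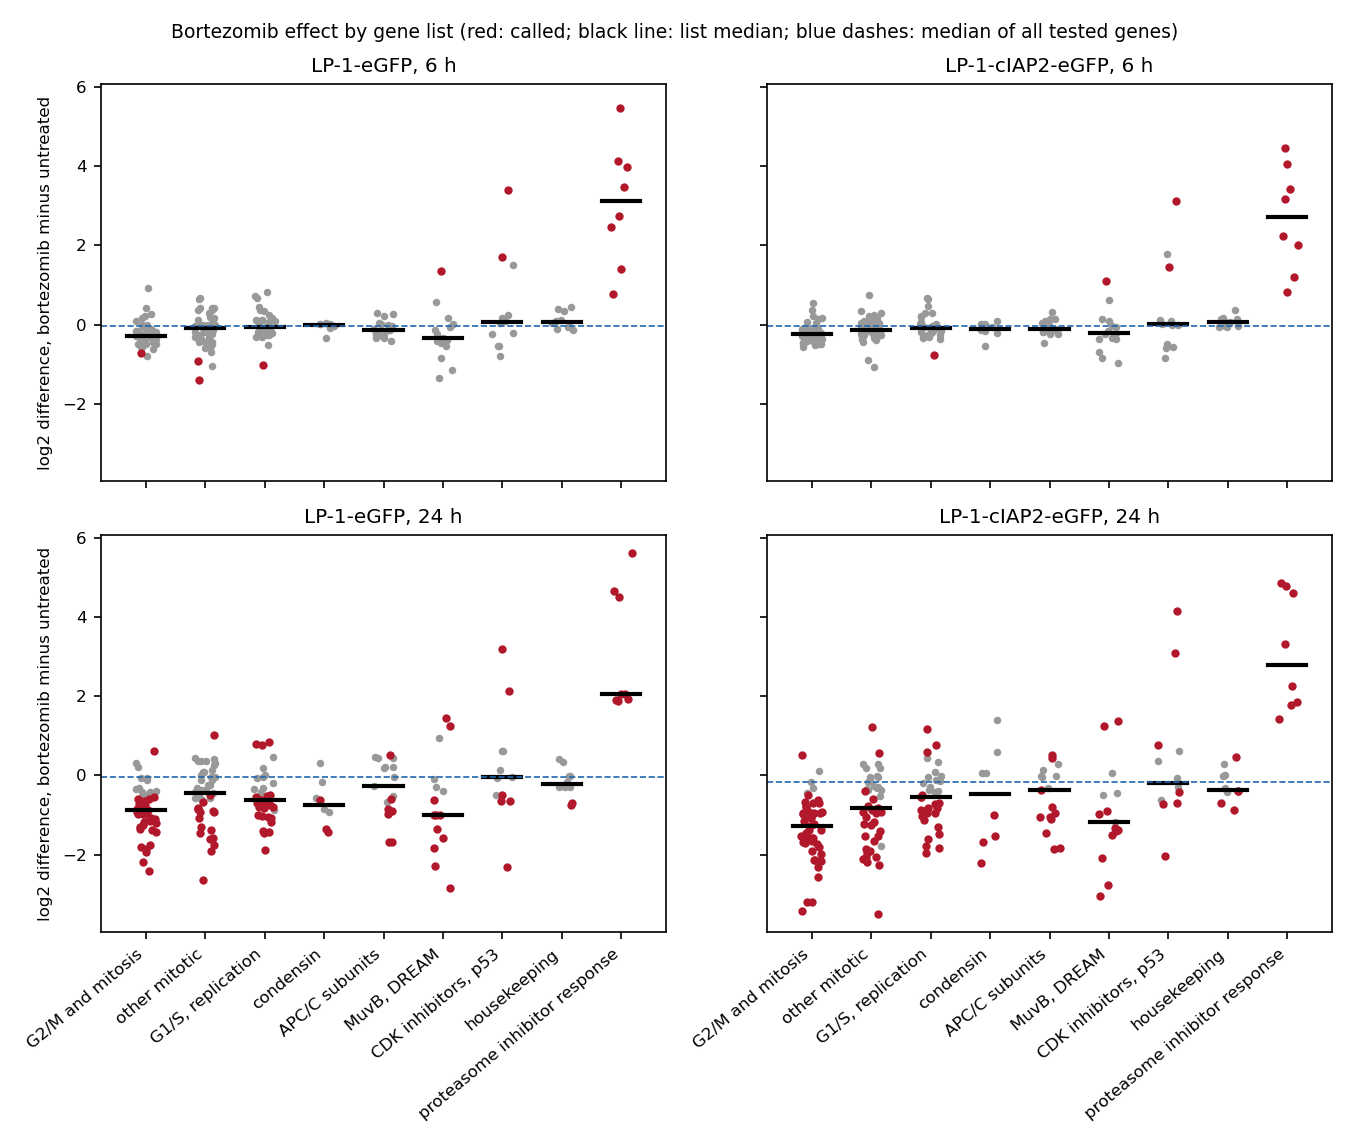
Log2 difference of bortezomib against untreated (vertical axis) for the genes of each list (points, red where called) in each line at 6 and 24 hours, with the list's median as a bar and the median of all tested genes as a dashed line. The proteasome inhibitor response list lies above 0 at both times, while the 49 mitotic genes have medians of -0.28 and -0.25 at 6 hours and of -0.88 and -1.28 at 24 hours.

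The plasma cell markers that define the line fell beside the mitotic genes at 24 hours, 5 of 7 in control cells and 6 of 7 in LP-1-cIAP2-eGFP cells, with medians of -1.47 in each. Without the low-signal array 6 of 7 fell in each line. SDC1, the gene of CD138, fell by 1.80 and 3.11. Their part in the fall of the mitotic genes was not tested.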

How the data were processed

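RNA from 16 samples was hybridized to Agilent 8x60K 1-colour arrays, read here as 50599 gene probes. Per the file headers, the deposited intensities (processed signals) were made with Agilent Feature Extraction 10.7.3.1. They were not normalized between arrays. The authors also deposited quantile-normalized log2 values, used here as an alternative.

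Log2 processed signals without outlier spots were averaged per probe and quantile-normalized. A probe was kept where both replicates of any condition were well above background (33725 probes). These were fitted with limma 3.58.1 in R 4.3.3, the 8 conditions sharing 1 estimate of the spread, and called at a Benjamini-Hochberg adjusted p under 0.05 over all probes. The tests were 2-sided and were tried on simulated data. The study's methods used a 3-way ANOVA and a moderated t-test with a fold threshold, which were run as alternatives. With 2 arrays per condition, their number limits the precision.

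Groups and replicate numbers are those of the labels. Symbols came from RefSeq through each probe's accession (55.7% of probes matched), and unmatched probes are unnamed here. Some genes of the marker and replication lists are not reported here. The 50 genes and the other lists were chosen with earlier results of these data known. Values on every array are given for 8 set genes (CCNB1, CDK1, PLK1, AURKA, CDC20, TOP2A, MKI67 and FOXM1) and for up to 3 called members with the largest change in each direction of a comparison. Of the other lists the 3 largest called changes in each direction in control cells at 24 hours may be named, and every gene of the MuvB, CDK inhibitor and drug response lists. ANLN, CDC20 and KIF23 at 6 hours, and the members named where a single array decides a call, were picked after their values were seen.

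Alternatives changed the scaling, background correction, probe filter, replicate and slide blocks, array weights, arrays in the fit and thresholds. Those that combine leaving out the low-signal array with another change, and the values without it in the direct comparisons, were chosen after seeing the data.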

Additional observations from a re-analysis of the deposited data

How the results depend on the processing

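For the mitotic genes called in the 24 hour responses, the 6 hour response of control cells and the averaged and untreated line differences, no difference turned its direction under any alternative that was run, and all the alternatives listed at the outset were run. Counts below are members called. Where the share of all probes in the same fit is not given above, a count stands without a background. For the 24 hour fall in control cells (34), leaving out 1 array at a time gave 23 to 39, and in LP-1-cIAP2-eGFP cells (44) it gave 35 to 46. The member that rose, KIF2C, was lost in part of these fits, with counts of 0 to 1 in both lines. Member medians lay between -0.91 and -0.81 in control cells and between -1.53 and -1.03 in LP-1-cIAP2-eGFP cells.

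With only the 4 arrays compared in the fit, which leaves 2 residual degrees of freedom, the 24 hour counts were 0 higher and 0 lower in both lines, and the 6 hour fall in control cells went from 1 to 0. With a 2-fold threshold added, the 24 hour counts were 0 higher and 16 lower in control cells and 0 higher in the other line, the 6 hour fall was 0, and the untreated line difference was 0 higher. Array weights, which gave both LP-1-cIAP2-eGFP arrays with bortezomib for 24 hours a weight of 0.1211, left 25 of the 44 falls and 0 rises there. With these weights the 6 hour counts in control cells were 1 higher and 18 lower and in the other line 1 lower, the averaged line difference had 2 higher, and the untreated line difference had 9 higher and 2 lower.

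The 24 hour rise in control cells was 0 under 75th percentile scaling. That in LP-1-cIAP2-eGFP cells was 0 under 75th percentile scaling, normexp, no filter, the slide block, and the slide block without the low-signal array, the last chosen after seeing the data.

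At 6 hours the count lower in control cells was 0 under 75th percentile scaling, the authors' normalized values, no filter, the slide block and averaged probes, and 5 where probes had to be well above background on all arrays, a filter that gave 1 lower in LP-1-cIAP2-eGFP cells. Leaving out 1 array gave 0 to 1 higher and 0 to 4 lower in control cells.

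For the line difference averaged over treatment and time (7 higher, 2 lower), the counts were 1 and 1 under 75th percentile scaling and under the slide block, 2 higher without a filter, 12 higher with the all-array filter, 12 higher by ordinary 3-way ANOVA, 1 lower under normexp, and 0 and 0 by the study's 2-group comparison and by its 3-way rule. Leaving out 1 array gave 1 to 14 higher and 2 to 9 lower. In untreated cells (2 higher, 0 lower) the count higher was 0 under 75th percentile scaling, no filter, the slide block and averaged probes. With the all-array filter it was 7, with 1 lower, and leaving out 1 array gave 0 to 7 higher and 0 to 2 lower. For the difference between the 24 hour responses, leaving out 1 array gave 0 to 24 members more negative.

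The labels do not say what a replicate number shares, and the numbers were not taken to pair the samples. Over the 28 pairs of conditions the correlation of replicate deviations ran from -0.110 to 0.239 and was over 0.1 in 7. With the replicate number as a block, 5 members were higher in untreated LP-1-cIAP2-eGFP cells.

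Under 75th percentile scaling the median of all probes for the 24 hour difference in LP-1-cIAP2-eGFP cells was 0.21 in place of -0.16, and that of the members -1.48 in place of -1.28. The probes called at 6 hours in that line went from 257 higher and 109 lower (29.8% lower) to 178 and 40 (18.3% lower). The causes of these changes were not tested. The 2 arrays per condition and the dim low-signal array limit what small differences can be shown.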

Other observations

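Replicate 2 was higher than replicate 1 in all 8 conditions for 5 of the 49 mitotic genes and 4.78% of all tested probes, and the reverse held for 0 and 1.84%. The median difference over the conditions was 0.75 on the log2 scale for INCENP, 0.60 for SPC24, 0.24 for NUSAP1, 0.22 for SPC25 and 0.18 for RACGAP1.

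Other probes of a gene did not always give the same value as the brightest one. The second CCNB1 probe was higher in LP-1-cIAP2-eGFP averaged over treatment and time (0.54, adjusted p = 0.00102 by limma), while the brightest CCNB1 probe did not pass. The second CKAP2 probe did not pass in that averaged line difference (0.23, adjusted p = 0.258 by limma), where the brightest did. The second KIF4A probe fell by 0.67 in control cells at 24 hours, where the brightest did not pass. A dim second CDK1 probe had 24 hour differences of -0.40 and -2.64 with a standard error of 0.95, and neither passed.

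Of 10 housekeeping genes, 0 rose and 2 fell in control cells at 24 hours (median -0.23), and 1 rose and 4 fell in LP-1-cIAP2-eGFP cells (median -0.36), or 2 and 5 without the low-signal array (median -0.35). In control cells 2 rose and 4 fell without that array. With 75th percentile scaling 1 fell in control cells (median -0.36), and 1 rose and 3 fell in LP-1-cIAP2-eGFP cells (median -0.45).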
